A study of Drosophila melanogaster with 12 samples.

Results

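The genes described are 7 genes of the Enhancer of split complex, the receptor Notch (N), its ligand Serrate (Ser) and the glycosyltransferase fringe (fng). They were picked by gene symbol, with no threshold on a measured value. The array names 12349 genes, and these 10 were each measured by 1 probe set. Of the 7 Enhancer of split genes, 5 encode basic helix-loop-helix (bHLH) repressors, namely E(spl)mgamma-HLH, E(spl)mbeta-HLH, E(spl)m3-HLH, E(spl)m5-HLH and E(spl)m7-HLH. The other 2, E(spl)m4-BFM and E(spl)malpha-BFM, encode small proteins of the Bearded family. Ser was the only Notch ligand among the 10.

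Notch is a surface receptor that is cleaved when a ligand on a neighbouring cell binds it, and its intracellular part then enters the nucleus and, with Su(H) and mastermind, switches on target genes. The Enhancer of split genes are the best known of these targets, and their bHLH repressors, acting with the co-repressor groucho, hold down the proneural genes that start sensory organ formation. Bearded family proteins restrain Neuralized, the ubiquitin ligase that helps Notch ligands to signal. In the wing disc, the larval precursor of the adult wing, Serrate and Delta activate Notch along the boundary between dorsal and ventral cells, and fringe modifies Notch so that it answers Delta more readily than Serrate. Notch signalling is known from the gut too, where it sets the boundary cells of the hindgut and singles out the tip cell of each Malpighian tubule, the excretory organ of the fly.

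RNA from dissected L3 larval tissues of Drosophila melanogaster was measured on 12 Affymetrix Drosophila_2 arrays, in 4 groups of 3. The first group held wing discs labelled as overexpressing the transcription factor MiT (nub-Gal4 UAS-MiT), and its controls were wing discs with the driver alone (nub-Gal4), so both disc groups carried the driver. nub-Gal4 acts in the wing-forming region, so any transgene is driven in a fraction of the cells of the disc. The third group held hindgut with Malpighian tubules from MiT mutants (MiTTZ2/Df(4)TZ), that is, 1 mutant allele over a deficiency, and its controls were the same organs from wild-type larvae. The study asked which loci respond to gain of MiT in the disc and to loss of MiT in the hindgut and tubules. Nothing in the labels ties the replicates to separate animals. The p-values therefore reflect the spread of these samples alone, which may be technical.

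The gene for MiT, named Mitf on the array, was checked first. It averaged 4.41 ± 0.20 in mutant hindgut-tubule samples and 6.59 ± 0.44 in wild-type ones on the deposited log2 scale (SD, n = 3 each), a 4.51-fold fall (limma adjusted p = 0.0118). In the labelled nub-MiT discs it averaged 8.11 ± 0.10, against 7.996 ± 0.13 in driver-alone discs, and the difference of 0.12 did not pass the test (limma adjusted p = 0.377). The sources used here do not give whether this probe set detects the transgene, so the discs are called by their label throughout. Arrays of 1 group correlated at 0.982 to 0.9902 in labelled nub-MiT discs, at 0.984 to 0.988 in driver-alone discs, at 0.943 to 0.986 in mutant samples and at 0.955 to 0.985 in wild-type hindgut-tubule samples. Mutant array 2 stood apart, with 44.7% of its probe sets reaching 4 on the log2 scale and 41.3% to 42.1% on the other 11 arrays. The number of arrays limits the precision of every value below.

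The 9 genes over the filter were at a higher level in the wing disc than in the hindgut and tubules, each on all 6 disc arrays against all 6 hindgut-tubule arrays, as the plot of each gene by array shows. Of these, 5 averaged over a log2 value of 4 in both driver-alone discs and wild-type hindgut-tubule samples, and all 5 were higher in the discs by limma, where 75.9% of the 8678 probe sets tested were called, 46.6% higher and 29.3% lower. The groups of these genes did not overlap, as was so for 81.9% of all tested probe sets. The other 4 passed the filter through the disc arrays alone, so they had to differ and are not counted. A probe set was tested if 3 or more of the 12 arrays reached 4 on the log2 scale. E(spl)m5-HLH did not, and its values lay under 4 on 11 of the 12 arrays, so no order is read from them. Tissue and driver genotype change together in this comparison, and fewer cells of a type cannot be told apart from less RNA per cell in bulk tissue.

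**Figure D1:**
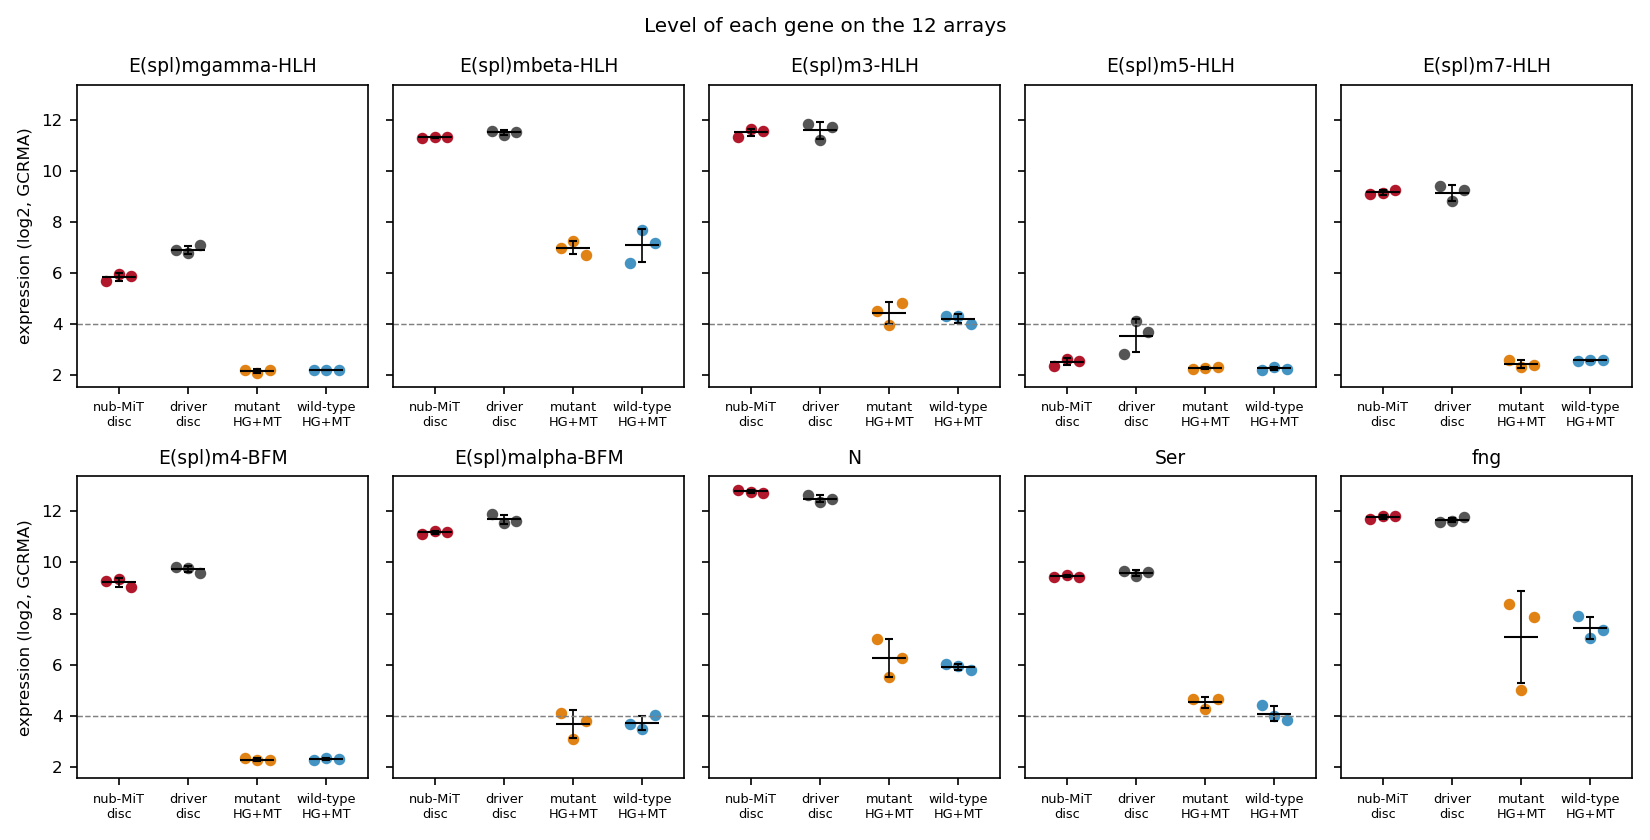
Deposited log2 expression value (vertical axis) of each of the 10 genes on each of the 12 arrays, with a column of points for labelled nub-MiT discs, driver-alone discs, MiT mutant hindgut and tubules (HG+MT) and wild-type HG+MT. Points are arrays, bars are the mean ± SD of 3 arrays, and the dashed line marks a log2 value of 4; the 9 genes over the filter are higher in both disc groups than in both HG+MT groups, and E(spl)m5-HLH is near background in all 4 groups.

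Of the bHLH genes, E(spl)mbeta-HLH was well above background in both tissues. It had 11.58, 11.42 and 11.53 in driver-alone discs, against 6.39, 7.69 and 7.19 in wild-type hindgut-tubule samples, a 21.4-fold difference (limma adjusted p = 3.94e-05). E(spl)m3-HLH had 11.84, 11.22 and 11.71 in driver-alone discs and 4.32, 4.31 and 4.01 in wild-type hindgut-tubule samples, which lie just over the log2 value of 4 taken here as background. Its difference was 166.5-fold (limma adjusted p = 4.97e-07). The tissues are far apart for both genes, and no array of one tissue reached the range of the other.

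E(spl)mgamma-HLH, E(spl)m7-HLH, E(spl)m4-BFM and E(spl)malpha-BFM averaged under a log2 value of 4 in both hindgut-tubule groups. For these 4 genes only a lower bound can be given against that value, with no test. Driver-alone discs were at least 7.55-fold higher for E(spl)mgamma-HLH, at least 35.6-fold higher for E(spl)m7-HLH, at least 53.0-fold higher for E(spl)m4-BFM and at least 206.2-fold higher for E(spl)malpha-BFM. E(spl)malpha-BFM reached the background value on 1 mutant array, at 4.12, and on 1 wild-type array, at 4.02.

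The receptor, the ligand and fringe were also lower in the excretory organs, yet their means stayed over that value. N had 12.66, 12.38 and 12.47 in driver-alone discs and 6.01, 5.96 and 5.79 in wild-type hindgut-tubule samples, a 95.8-fold difference (limma adjusted p = 1.56e-07). Ser had 9.65, 9.47 and 9.64 in driver-alone discs and 4.41, 3.98 and 3.84 in wild-type hindgut-tubule samples, a 45.5-fold difference (limma adjusted p = 1.03e-06) that rests on wild-type values around the background value. fng had 11.59, 11.64 and 11.77 in driver-alone discs and 7.91, 7.04 and 7.37 in wild-type hindgut-tubule samples, an 18.7-fold difference (limma adjusted p = 1.09e-05). Across the tested probe sets the median difference between these groups was 0.34, and centring each array on its median lowered it by 0.21, so the members' folds are large beside either scaling.

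Most markers of the wing disc, tubule principal cell and hindgut lists followed the labels. The tubule genes Uro, Irk2, salt and NaPi-T and the hindgut genes byn, otp, fkh, cad and Abd-B averaged under a log2 value of 4 in the discs and over it in the hindgut and tubules. The wing genes vg, ap, ara, caup, Dll and pdm2 did the opposite in driver-alone discs and wild-type hindgut-tubule samples. The other markers of these lists were over 4 in both tissues, among them the wing genes nub, sd, tsh and hth and the tubule gene ct (4.99 in driver-alone discs). en, listed for wing and hindgut, averaged 10.17 in driver-alone discs and 7.83 in the wild-type hindgut and tubules. All 6 fat body markers averaged over 4 in the hindgut-tubule samples too. The log2 of their summed level was 15.95 to 17.09 in wild-type samples and 15.16 to 16.96 in mutant samples. That of the tubule principal cell markers was 14.77 to 15.65 in wild-type samples and 14.94 to 15.58 in mutant samples. The part of fat body in the members' values was not tested.

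In the labelled nub-MiT discs, 3 of the 9 tested genes fell relative to driver-alone discs and 0 rose (limma, adjusted p under 0.05). E(spl)mgamma-HLH fell 2.11-fold, and both Bearded family members, E(spl)m4-BFM and E(spl)malpha-BFM, fell 1.43-fold. Over all tested probe sets, 30.0% were called in this comparison, with 16.1% lower and 13.9% higher. The members' median difference was -0.12, against -0.03 over all tested probe sets. Without labelled nub-MiT array 1, only 1 member was called lower. At an unadjusted p under 0.05, limma gave 4 members lower and 1 higher.

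E(spl)mgamma-HLH, a bHLH repressor, had 5.68, 5.98 and 5.87 in labelled nub-MiT discs and 6.90, 6.77 and 7.08 in driver-alone discs. The groups did not overlap, and the 3 labelled nub-MiT arrays were all lower by more than the range within either group. The difference was -1.07 on the log2 scale (SE 0.11, 95% interval -1.36 to -0.79, limma adjusted p = 0.00253). It passed the test in all 16 alternatives tried, with a highest adjusted p of 0.0181. Of these, 1 was another choice of probe set, which cannot change the result of a gene with 1 probe set. The authors' deposited table gives a 2.11-fold higher value in driver-alone discs, with a step-up p of 0.000717.

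E(spl)m4-BFM had 9.27, 9.35 and 9.02 in labelled nub-MiT discs, against 9.81, 9.78 and 9.59 in driver-alone discs. E(spl)malpha-BFM had 11.10, 11.24 and 11.19 in labelled nub-MiT discs, against 11.88, 11.54 and 11.64 in driver-alone discs. Neither gene's groups overlapped, and both shifts are small beside that of E(spl)mgamma-HLH. The log2 difference was -0.51 for both, with an SE of 0.11 for E(spl)m4-BFM (limma adjusted p = 0.0204) and of 0.10 for E(spl)malpha-BFM (limma adjusted p = 0.0152). Both calls were close to the threshold. That of E(spl)m4-BFM ended without driver-alone array 1, driver-alone array 2 or labelled nub-MiT array 1 (limma adjusted p = 0.0599, 0.0585 and 0.0507) and with no filter (0.0543); that of E(spl)malpha-BFM ended without labelled nub-MiT array 1 (0.0509), with all 12 arrays in 1 fit (0.225) and in the authors' deposited table (step-up p = 0.534).

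The other bHLH members did not pass the test in the discs. E(spl)mbeta-HLH had 11.30, 11.32 and 11.33 in labelled nub-MiT discs and 11.58, 11.42 and 11.53 in driver-alone discs. These groups did not overlap, but the difference was only -0.19 (95% interval -0.35 to -0.04, limma adjusted p = 0.0669), and without driver-alone array 2 it was -0.24 and passed (adjusted p = 0.0451). E(spl)m3-HLH averaged 11.51 ± 0.15 in labelled nub-MiT discs and 11.59 ± 0.33 in driver-alone discs (SD, n = 3 each), a difference of -0.08 with a 95% interval of -0.53 to 0.36. E(spl)m7-HLH averaged 9.16 ± 0.10 in labelled nub-MiT discs and 9.15 ± 0.31 in driver-alone discs (SD, n = 3 each), a difference of 0.01 with an interval of -0.39 to 0.41. For both, the arrays of the groups interleave. A fall of 0.51, as seen for the Bearded members, lies within the interval of E(spl)m3-HLH and outside that of E(spl)m7-HLH.

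E(spl)m5-HLH had 2.36, 2.64 and 2.57 in labelled nub-MiT discs and 2.83, 4.11 and 3.69 in driver-alone discs. Only 1 of these 6 values reaches the log2 value of 4, so no fold or test is given here. The authors' deposited table lists it at 2.02-fold higher in driver-alone discs, with a step-up p of 0.105.

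N, Ser and fng did not pass the test in the discs either. N had 12.85, 12.77 and 12.74 in labelled nub-MiT discs and 12.66, 12.38 and 12.47 in driver-alone discs, so its groups did not overlap. The difference was 0.28 (95% interval 0.06 to 0.50, limma adjusted p = 0.0617). It passed without driver-alone array 1 (0.36, adjusted p = 0.0275), with quantile normalization (adjusted p = 0.0421) and with trend and robust moderation (adjusted p = 0.0403). Ser averaged 9.47 ± 0.04 in labelled nub-MiT discs and 9.58 ± 0.10 in driver-alone discs, a difference of -0.12 (95% interval -0.29 to 0.06). fng averaged 11.79 ± 0.07 in labelled nub-MiT discs and 11.67 ± 0.09 in driver-alone discs, a difference of 0.12 (95% interval -0.06 to 0.31; SD, n = 3 each). In all, 5 of the 9 tested members did not overlap between the disc groups, against 47.8% of all tested probe sets.

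**Figure D2:**
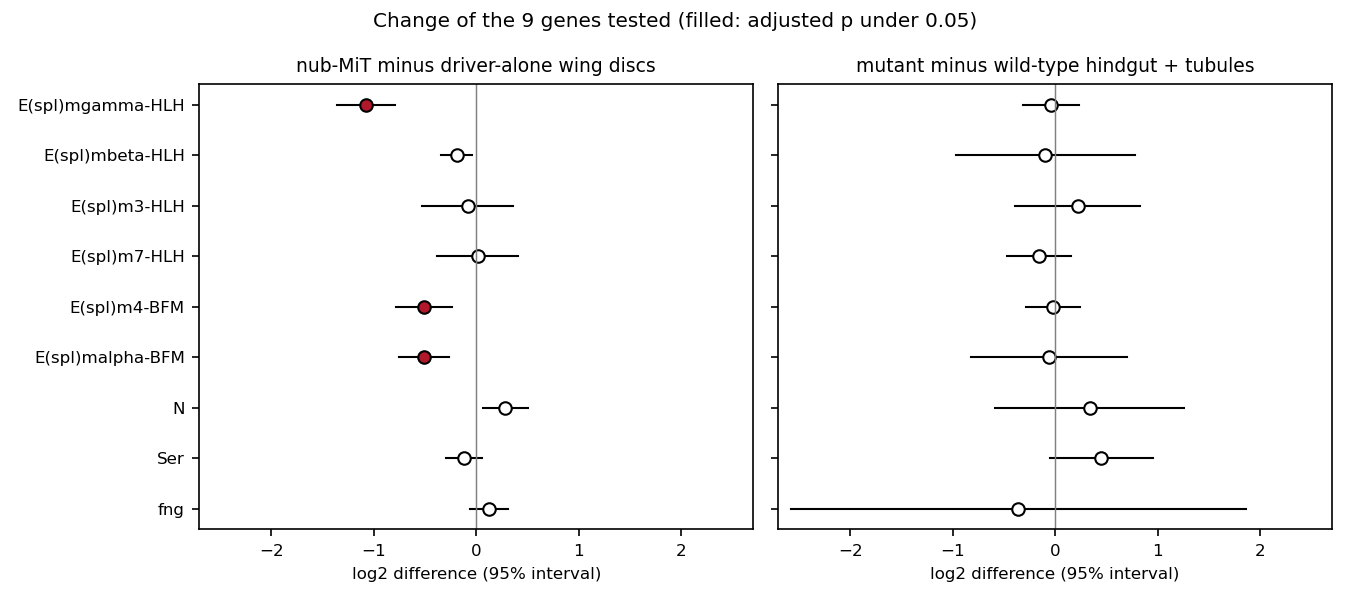
Log2 difference (horizontal axis) of each member in the 2 comparisons, labelled nub-MiT minus driver-alone discs and MiT mutant minus wild-type hindgut and tubules. Points are limma estimates from 3 arrays a group and error bars are 95% intervals; E(spl)mgamma-HLH in the discs is farthest from 0 at -1.07, and the widest interval is that of fng in the hindgut and tubules, -2.57 to 1.86.

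The 7 members lie among the other genes of the complex on chromosome arm 3R. The order there, from RefSeq, is E(spl)mdelta-HLH, E(spl)mgamma-HLH, E(spl)mbeta-HLH, E(spl)malpha-BFM, Kaz-m1, E(spl)m2-BFM, E(spl)m3-HLH, E(spl)m4-BFM, E(spl)m5-HLH, E(spl)m6-BFM, E(spl)m7-HLH, E(spl)m8-HLH and gro. Over the whole complex, 4 of 10 tested E(spl) genes fell in the labelled nub-MiT discs and 0 rose, beside 16.1% lower and 13.9% higher over all probe sets. By class, 1 of 6 tested bHLH genes (median difference -0.14) and 3 of 4 tested Bearded family genes fell (median -0.51). These counts turn on single arrays. Without labelled nub-MiT array 1, E(spl)mgamma-HLH was the 1 gene of 10 called, and 0 of 4 Bearded family genes were. Without driver-alone array 2, 3 of 6 bHLH and 2 of 4 Bearded family genes fell. The difference between the classes was not tested. The 5 tested genes from E(spl)mdelta-HLH to E(spl)m2-BFM in this order each had groups that did not overlap and a 95% interval below 0. Of all tested probe sets, 47.8% did not overlap. E(spl)mdelta-HLH (-0.81 to -0.07) and E(spl)mbeta-HLH, among the 5, did not pass the test. The groups of E(spl)mdelta-HLH were barely apart, at 9.34 on the highest labelled nub-MiT array and 9.35 on the lowest driver-alone array. This stretch was picked with the values known and was not tested as a group.

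Of the complex's other genes, E(spl)m2-BFM had 9.61, 9.80 and 9.85 in labelled nub-MiT discs and 10.80, 10.23 and 10.60 in driver-alone discs, a difference of -0.79 (SE 0.16, limma adjusted p = 0.0166). Its call ended without labelled nub-MiT array 1 or 2 (adjusted p = 0.0535 and 0.052), with all 12 arrays in 1 fit (0.0726) and with no filter (0.0524). E(spl)mdelta-HLH (-0.44, adjusted p = 0.078), E(spl)m6-BFM (0.29, 0.401) and E(spl)m8-HLH (0.12, 0.476) did not pass the test. gro, the co-repressor that the bHLH proteins recruit, rose by 0.30 (adjusted p = 0.0418), and that call held only without driver-alone array 1 among the 6 fits that left out 1 array (adjusted p up to 0.118).

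The Bearded family has further genes outside the complex, and 2 of 3 tested there fell. Ocho had 4.70, 4.36 and 4.95 in labelled nub-MiT discs and 7.02, 6.45 and 6.31 in driver-alone discs, a 3.798-fold fall (limma adjusted p = 0.00397). Tom had 11.02, 10.98 and 11.02 in labelled nub-MiT discs and 11.47, 11.42 and 11.44 in driver-alone discs, a difference of -0.44 (limma adjusted p = 0.00325). The groups did not overlap for either gene, and neither call was lost in 14 alternatives. Brd, the founding gene, differed by -0.18 and did not pass (limma adjusted p = 0.365). Counted together, 5 of 7 tested Bearded family genes fell, with a median difference of -0.51, beside 16.1% lower over all probe sets. Without labelled nub-MiT array 1 the count was 2, namely Ocho and Tom.

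**Figure D3:**
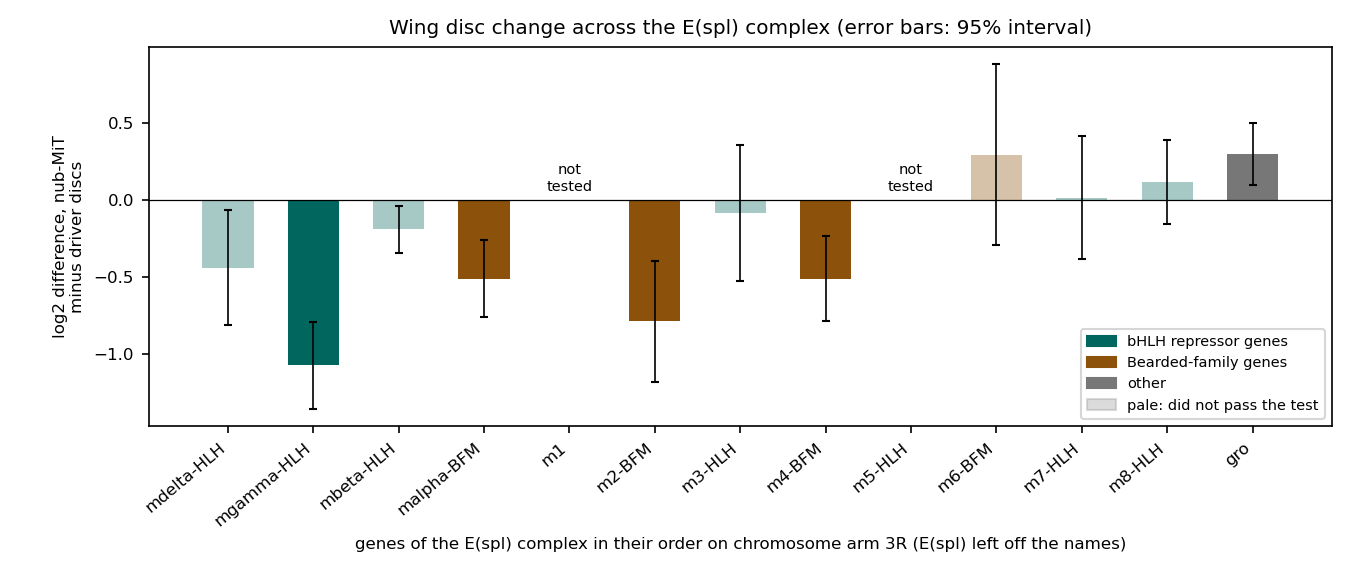
Log2 difference of labelled nub-MiT minus driver-alone discs (vertical axis) for the genes of the Enhancer of split complex in their order on chromosome arm 3R (horizontal axis, by rank and not to distance; m1 is Kaz-m1). Bars are coloured by gene class and pale where the test was not passed, and error bars are 95% intervals from limma with 3 arrays a group; of the tested genes, E(spl)mgamma-HLH at -1.07 and E(spl)m2-BFM at -0.79 lie lowest.

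The rest of the Notch pathway was read from 8 lists that exclude the members, with 55 tested genes. In the labelled nub-MiT discs, 4 rose, 15 fell and 36 did not pass the test, beside the 13.9% higher and 16.1% lower over all probe sets. The 15 include sens, which passed the filter through the driver-alone discs alone and had to differ. The count that fell was 9 without labelled nub-MiT array 2 and 7 with all 12 arrays in 1 fit. The count that rose was 2 without labelled nub-MiT array 2 or 3 or driver-alone array 2. None of 5 tested ligand-handling genes passed; 0 of them rose and 0 fell, and Delta (Dl), the second ligand, differed by -0.16 (limma adjusted p = 0.103). Of 9 genes of receptor processing and glycosylation, 3 fell. These were rumi, which adds O-glucose to Notch (-0.56, adjusted p = 0.00485), and the gamma-secretase subunits pen-2 (-0.37, 0.0315) and aph-1 (-0.25, 0.0305). When 1 array was left out, the aph-1 call ended whichever it was (adjusted p up to 0.105), and the pen-2 call held only without driver-alone array 3 (up to 0.104).

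Of 7 trafficking genes, bib, a channel-like protein needed for Notch signalling (-0.47, limma adjusted p = 0.0085) and Su(dx), a ubiquitin ligase that promotes Notch turnover (-0.30, 0.022), fell. Over all tested probe sets, 16.1% were lower and 13.9% higher, which is the share to set beside the counts of this paragraph. The Su(dx) call held only without driver-alone array 2 among the fits that left out 1 array (adjusted p up to 0.0747). Of 7 nuclear genes, gro rose and the co-repressor CtBP fell (-0.29, 0.0158), a call that ended without labelled nub-MiT array 2 or 3 (0.0671 and 0.0567). The probe sets of Hairless (H), which tethers co-repressors to Su(H), disagreed, since the brighter one differed by 0.02 and did not pass while the other fell by 0.49 (adjusted p = 0.00757). With all 12 arrays in 1 fit, the calls of rumi, bib, pen-2, aph-1, Su(dx), CtBP and gro ended (adjusted p = 0.0631 to 0.5).

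Genes that respond to Notch outside the Enhancer of split complex moved both ways. vg, the selector gene of the wing, fell by 0.89 (limma adjusted p = 0.00494), while Myc, the growth regulator, rose by 0.81 (0.0118). ct, a marker of the wing margin, rose by 0.69 (0.0373), but that call held only without labelled nub-MiT array 1 or driver-alone array 3 among the fits that left out 1 array (adjusted p up to 0.1) and ended with no filter (0.109). wg, the margin ligand, differed by -0.06 and dpn by 0.61 (0.169), and neither passed.

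The proneural and sensory organ genes, which Enhancer of split repressors hold down, included 4 that fell and 1 that rose of 8 tested. Over all probe sets, 16.1% were lower and 13.9% higher. The 4 include sens, whose call is not support. sens, the zinc finger factor of sensory organ precursors, had 3.01, 2.92 and 3.30 in labelled nub-MiT discs and 6.22, 5.86 and 5.90 in driver-alone discs. It was at least 3.98-fold lower against the background value. It reached that value on the driver-alone disc arrays alone and passed the filter through them, so it had to differ and its test carries no support. phyl, which directs sensory organ fate, fell by 0.86 (adjusted p = 0.018, or 0.0539 without driver-alone array 1 and 0.0575 with no filter), and the proneural genes sc and ac fell by 0.60 (0.00296) and 0.49 (0.0118). chn, a zinc finger factor of sensory organ development, rose by 0.62 (0.00397). Among 5 vein genes rho, which activates EGF receptor ligands, fell by 0.34 (0.0242). Its call ended without driver-alone array 1 or 2 or labelled nub-MiT array 1 or 2 (adjusted p up to 0.0731), and with all 12 arrays in 1 fit (0.522).

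**Figure D4:**
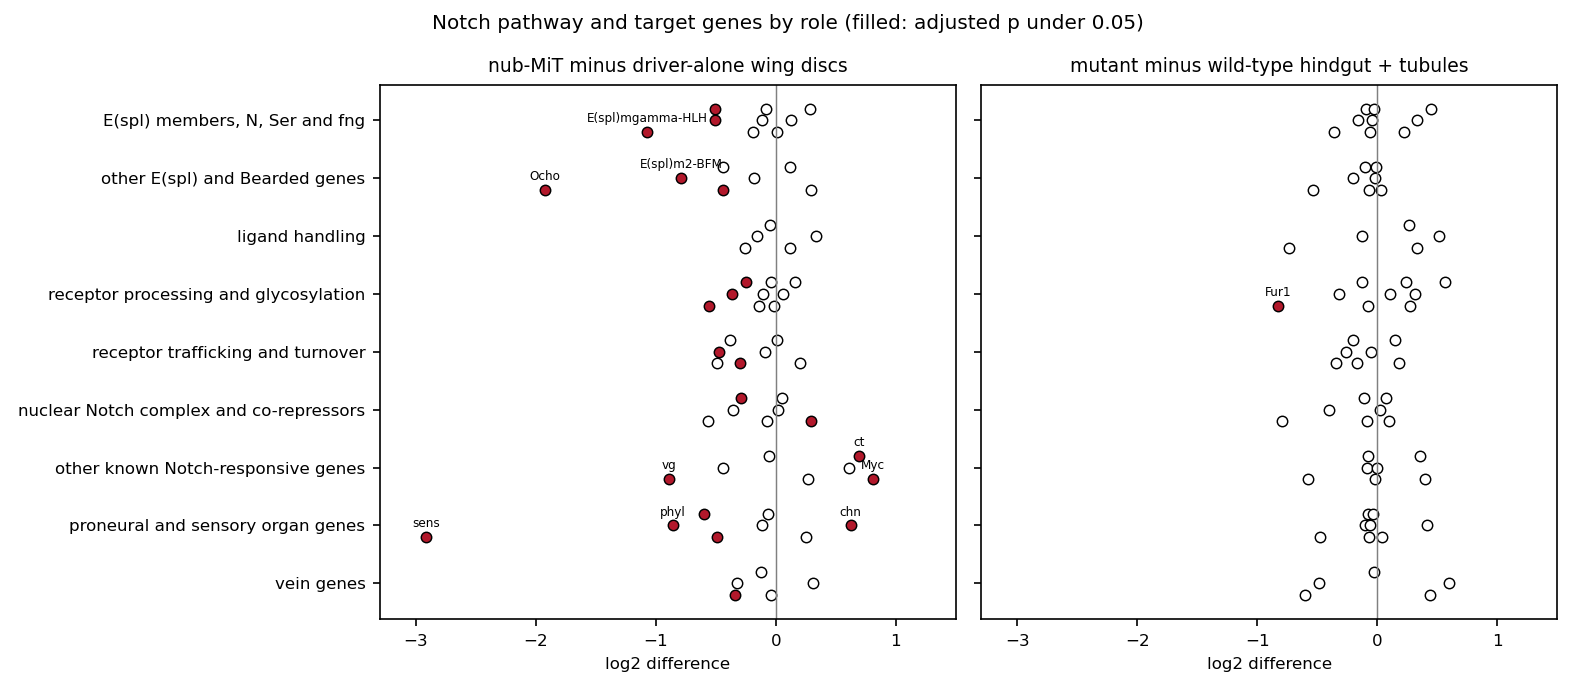
Log2 difference (horizontal axis) of labelled nub-MiT minus driver-alone discs (left) and MiT mutant minus wild-type hindgut and tubules (right) for the tested members and the tested genes of the 8 Notch pathway lists (rows). Points are genes, filled where limma's adjusted p is under 0.05; in the discs Ocho lies at -1.93 and Myc at 0.81, sens is drawn at its measured difference although the text gives only a bound for it, and in the hindgut and tubules Fur1 alone is filled.

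Markers of regions and of other cells differed between the disc groups. Of 11 wing disc markers, 7 fell and 1 rose, beside 16.1% lower and 13.9% higher over all probe sets. The 7 include pdm2, whose call is not support. The log2 of the summed level of these markers was 13.76 to 13.83 in labelled nub-MiT discs and 14.07 to 14.21 in driver-alone discs. With all 12 arrays in 1 fit, 3 fell and 0 rose. nub, whose driver was used, fell by 1.05 (limma adjusted p = 0.00072, or 0.0624 with all 12 arrays in 1 fit). pdm2, its neighbour, was at least 2.697-fold lower, but it passed the filter through the driver-alone discs alone and had to differ.

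Of 8 tested hemocyte markers 5 rose, namely Hml, He, eater, NimC1 and Pxn, with a summed level of 11.34 to 11.93 in labelled nub-MiT discs and 10.10 to 10.67 in driver-alone discs. This count was 5 or 6 whichever array was left out, and 13.9% of all tested probe sets rose in this comparison. Of 8 muscle markers 5 rose (16.19 to 16.44 in labelled nub-MiT discs, 15.72 to 16.07 in driver-alone discs). The muscle count was 2 without labelled nub-MiT array 1 or 2 or driver-alone array 1, and 3 without labelled nub-MiT array 3. Of 6 disc myoblast markers htl and Mef2 rose, with a summed level of 11.50 to 11.56 in labelled nub-MiT discs and 11.02 to 11.22 in driver-alone discs. twi (-0.23), Him (-0.36) and zfh1 (-0.14) had negative differences and did not pass, the other bright probe set of Mef2 differed by -0.24, and the htl call held only without driver-alone array 3 among the fits that left out 1 array.

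Of 2 tested tracheal markers Gasp rose 2.12-fold, a call that ended with all 12 arrays in 1 fit (adjusted p = 0.343), and trh differed by -0.29 and did not pass. Over all tested probe sets, 13.9% were higher and 16.1% lower. All 6 fat body markers had negative differences (median -2.98, down to -4.69), and 0 passed the test, although 1 had an unadjusted p under 0.05. Their summed level was 6.93 to 13.93 in labelled nub-MiT discs and 12.36 to 14.59 in driver-alone discs, and it varied widely among the labelled nub-MiT arrays. Fbp1 had 10.98, 6.14 and 3.64 there. Without labelled nub-MiT array 1, 3 of the 6 fell. The part of any of these markers in the members' differences was not tested.

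In the hindgut and tubules, 0 of the 9 tested members passed the test between MiT mutant and wild-type samples, where limma called 4.02% of all tested probe sets, 2.1% higher and 1.92% lower. At an unadjusted p under 0.05, 0 members were higher and 0 lower, and 0 were called with all 12 arrays in 1 fit or in the authors' deposited table. For none of the 9 did the groups separate, against 26.0% of all tested probe sets. Of the 9, 4 passed the filter through the disc arrays alone, which limits these counts and the median below. With the filter set within these 6 arrays, 5 members were tested and 0 were called. The members' median difference was -0.04, against -0.003 over all tested probe sets. E(spl)mgamma-HLH, E(spl)m7-HLH, E(spl)m4-BFM and E(spl)malpha-BFM lay under the background value in both groups, and E(spl)m5-HLH did so on all 6 arrays, so the data give no fold for them.

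Of the members whose means lay over the background value in both groups, Ser had 4.65, 4.27 and 4.65 in mutant samples and 4.41, 3.98 and 3.84 in wild-type samples. Its difference of 0.45 did not pass (SE 0.20, 95% interval -0.05 to 0.96, limma adjusted p = 0.315), and the lowest mutant array lay within the wild-type range. Of the wild-type arrays, 2 lay under the background value. N had 7.0, 5.53 and 6.24 in mutant samples and 6.01, 5.96 and 5.79 in wild-type samples, a difference of 0.34 (95% interval -0.58 to 1.26, limma adjusted p = 0.709). The mutant arrays lay both above and below the wild-type range, and the difference was -0.04 without mutant array 1.

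fng had 8.37, 5.02 and 7.86 in mutant samples and 7.91, 7.04 and 7.37 in wild-type samples. Mutant array 2, the one that stood apart, was the lowest of the 6. The difference was -0.36 (95% interval -2.57 to 1.86, limma adjusted p = 0.89), and without that array it was 0.68 (adjusted p = 0.288). Without both arrays numbered 2, a setting chosen after seeing the data, it was 0.47 (adjusted p = 0.335), and 9.18% of all tested probe sets were then called. The sign of the fng difference therefore turns on 1 library.

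E(spl)mbeta-HLH had 7.0, 7.25 and 6.72 in mutant samples and 6.39, 7.69 and 7.19 in wild-type samples, a difference of -0.09 (95% interval -0.97 to 0.78, limma adjusted p = 0.931). E(spl)m3-HLH had 4.53, 3.96 and 4.81 in mutant samples and 4.32, 4.31 and 4.01 in wild-type samples, a difference of 0.22 (95% interval -0.39 to 0.83, limma adjusted p = 0.711). The groups overlapped for both. A fall of 0.51 on the log2 scale lies within the intervals of E(spl)mbeta-HLH, N and fng.

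Of the 55 tested genes on the pathway lists, 1 fell in the mutant samples and 0 rose. Over all tested probe sets, 1.92% were lower and 2.1% higher. With the filter set within these 6 arrays, 40 of the pathway genes were tested, and 1 fell. With all 12 arrays in 1 fit, 3 of the 55 fell and 1 rose. The gene called was Fur1, a furin-type protease, by 0.83 (SE 0.12, limma adjusted p = 0.0223). With the replicate number as a block its adjusted p was 0.0582, the call held only without mutant array 2 among the fits that left out 1 array (up to 0.128), and its other probe set did not pass. In these samples the log2 of the summed level of the muscle markers was 15.94 to 16.48 in mutant samples and 15.64 to 15.77 in wild-type samples, and that of the myoblast markers 12.49 to 13.46 in mutant samples and 12.07 to 12.10 in wild-type samples. None of the representing probe sets of these genes passed the test. Their part in the members' values was not tested.

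Across all 12 arrays, the pattern of the 6 tested Enhancer of split members was most like that of E(spl)mdelta-HLH, Tom and esn. The Pearson correlation with the members' mean, each gene centred on its own mean, was 0.9996, 0.9994 and 0.9994. Because the arrays split by tissue, high values are common, and 332 of 7569 genes reached 0.99. E(spl)mdelta-HLH, Tom and esn averaged under the background value in both hindgut-tubule groups. So did the members E(spl)mgamma-HLH, E(spl)m7-HLH, E(spl)m4-BFM and E(spl)malpha-BFM. All of these passed the filter through the disc arrays, so their high correlations were set by the tissue split and carry no support.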

How the data were processed

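RNA from 12 samples was measured on Affymetrix Drosophila_2 arrays. The authors deposited log2 values made with GCRMA, per the submitters' processing notes; its version and the genome build are not given in the sources used here. Background correction by GCRMA compresses differences near background, so a log2 value of 4 was taken as a floor. The authors also deposited, per the file headers, p-values, step-up p-values and signed fold changes, used here as a score with the sign of the change and as an alternative test only.

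The arrays hold 18952 probe sets; 183 are controls and were dropped. Names came through RefSeq accessions (13437), symbols (346) or the file's name alone (196); 805 had several genes and 3985 none. A gene with several probe sets takes its value from the brightest by mean. Groups and replicate numbers come from the array titles. Each comparison was fitted on its own 6 arrays with limma 3.58.1 in R 4.3.3 (lmFit, eBayes), Benjamini-Hochberg over 8678 probe sets at 0.05, with 4 residual degrees of freedom; every adjusted p above is limma's. The procedure was tested on simulated data. Where a group's mean lies under the floor, a fold is a bound against it.

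The members and gene lists were chosen with earlier results of these data known. Every member is named, with the genes of each pathway list that passed, up to 6 per list by size; marker lists are given mainly by their range; genes of the complex that did not pass, dpn, wg, Dl, H, Brd and the single markers were added after their values were seen. In the hindgut-tubule groups, the deviations of arrays of the same number correlated at r = 0.29, 0.38 and 0.14. Mutant array 3 with wild-type array 1 reached 0.34, and mutant array 1 with wild-type array 3 had 0.08. The other pairs of unlike number were negative. The data therefore do not settle whether the numbers pair these samples, and the labels do not say.

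Sequences were not used here.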

Additional observations from a re-analysis of the deposited data

How the results depend on the processing

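In the discs, 3 members were called lower and 0 higher. The count of lower members was 2 with all 12 arrays in 1 fit, with no filter, with the replicate number as a block and in the authors' deposited table, and 1 to 3 when 1 array was left out (1 without labelled nub-MiT array 1). The count of higher members was 1 with quantile normalization and with trend and robust moderation, and 0 to 1 when 1 array was left out; N was the gene in each case. In the discs, arrays of the same number had r of deviations of 0.33, -0.05 and -0.18, and unlike numbers had -0.41 to 0.41. The data do not settle whether the disc numbers pair the samples, and the labels do not say. There the block took E(spl)malpha-BFM to an adjusted p of 0.0583. It also ended the disc calls of E(spl)m2-BFM, phyl, ac, rho, gro, CtBP, Su(dx), pen-2, aph-1 and htl (adjusted p = 0.0504 to 0.0979). In the hindgut and tubules 0 members were called under any setting, and among the genes named for that comparison the block changed the call of Fur1 alone. Over all probe sets it gave 148 higher and 146 lower there. Between tissues, the 5 members with means over the background value in both stayed higher in the discs throughout. The other 4 tested members passed the filter through the discs alone and are not counted. With no filter E(spl)m5-HLH was called higher too, but its means lay under the background value in both tissues. No call of a named gene turned its direction.

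Counts over all probe sets moved more. In the discs 1209 were higher and 1395 lower, against 619 and 457 with all 12 arrays, 449 and 305 in the authors' deposited table, 850 and 837 with the block, and 767 to 1050 and 668 to 1165 without 1 array. In the hindgut and tubules 182 were higher and 167 lower, against 702 and 626 with all 12 arrays, 485 and 438 in the authors' deposited table, 443 and 354 without both arrays numbered 2, and 48 to 233 and 58 to 166 without 1 array. The cause of these shifts was not tested. Signal near background limits 4 of the members in the hindgut and tubules to bounds, and E(spl)m5-HLH everywhere.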
